A study of Homo sapiens with 2 samples.

Results

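Integrins, laminins and nidogens are the receptors and the basement membrane proteins through which a cell holds on to its matrix. The 40 genes described here were the protein-coding genes whose symbols name an integrin alpha chain (18 genes), an integrin beta chain from ITGB1 to ITGB8 (8 genes), a laminin chain (12 genes) or a nidogen (2 genes). They were taken from 19936 protein-coding genes with 1 row per symbol. The RNA came from A2780, a human ovarian cancer cell line in long use, and was sequenced after poly(A) selection. There was 1 library labelled shControl, of wild-type genotype and called an empty-vector control in the design text, and 1 library labelled shJAM3, from cells of the same line with stable knockdown of JAM3. The labels do not say whether the cells were a clone or a pool, and the design text speaks of siRNA where the titles carry the prefix sh.

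An integrin is a pair of 1 alpha and 1 beta chain that spans the membrane, binds matrix or a counter-receptor outside the cell and links to actin or keratin filaments inside it. Alpha chains largely set which ligand is bound, and an alpha chain without a beta partner is not carried to the cell surface. Laminins are trimers of an alpha, a beta and a gamma chain that self-assemble into the sheet of the basement membrane, and nidogens bridge laminin to type IV collagen. In ovarian carcinoma cells these receptors are known for attachment to the mesothelium and the matrix of the peritoneum.

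The libraries held 15570262 and 16455079 fragments assigned to genes. Levels are FPKM, fragments per kilobase of the exons of a gene, scaled to the size of the library, so they can be compared between genes. A gene whose annotated exons include long, rarely used ones reads low on this scale. Differences are log2 ratios of shJAM3 over shControl on the scale log2(FPKM + 1), which draws genes near or under 1 FPKM towards 0. Ratios are of FPKM without the added 1, with exact 95% intervals from the fragment numbers in brackets. Intervals cover counting error only, since PCR copies are not independent molecules and no group had a second library. No test between conditions was possible, and no difference below has a replicate check. JAM3 itself was seen with 18 fragments in shControl and 14 in shJAM3, or 0.215 and 0.154 FPKM (ratio 0.716, 0.330 to 1.52). The interval includes 1, so the targeted gene did not differ beyond counting error, and a ratio under 0.330 lies outside the interval. The values thus do not show the knockdown that the label names, and directions are given for the library labelled shJAM3.

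Of the 40 genes, 20 had a mean of at least 1 FPKM and are called measured. The plot of levels shows them in both libraries. They were 8 alpha chains, 4 beta chains, 7 laminin chains and NID2. The other 20 had means of at most 0.532 FPKM, and the lowest measured mean was 1.46, so the boundary fell in a gap. In shControl the highest level was that of LAMB3, followed by ITGB5, LAMA5, ITGB1 and ITGA5. In shJAM3 the order began with ITGB1, then LAMB3, ITGB5, LAMA5 and ITGA5. The counting intervals of the levels overlapped for LAMA5 and ITGB1 in shControl, and for ITGB5 and LAMA5 in shJAM3. Those of ITGA3 and LAMC3 overlapped in both libraries. In shControl the same held for LAMC3 and LAMB1, NID2 and ITGAV, ITGAE and ITGA1, and ITGB2 and ITGA2B. In shJAM3 it held for ITGAV and LAMB2, and for ITGA1 and ITGA2B. Overlap of separate intervals does not decide whether a pair differed beyond counting error, and the difference within these pairs was not tested.

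**Figure D1:**
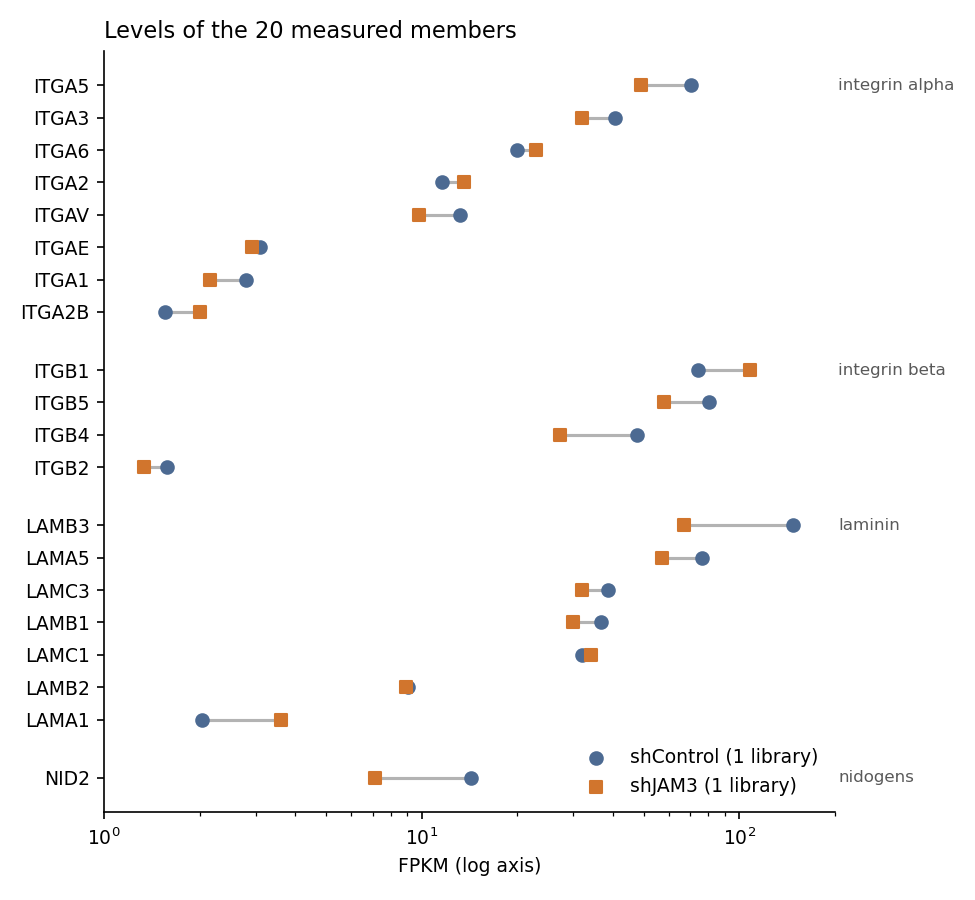
FPKM (log axis) of the 20 measured integrin, laminin and nidogen genes, with 1 point per library and genes grouped by class. LAMB3 moves from 148 FPKM in shControl to 67.0 in shJAM3, while ITGB1 moves the other way, from 74.0 to 108.

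Among the beta chains ITGB1 was higher in shJAM3, and ITGB5 and ITGB4 were lower. ITGB1, the shared partner of most alpha chains, lies on chromosome 10 (32900319 to 33005792, minus strand, GRCh38). Its level was 74.0 FPKM in shControl and 108 in the shJAM3 library (ratio 1.46, 1.42 to 1.51). ITGB5, which pairs with the alpha V chain and binds vitronectin, stood at 80.2 and 58.1 FPKM (ratio 0.725, 0.701 to 0.749). ITGB4, the hemidesmosome chain that links laminin to keratin filaments, lies on chromosome 17 (75721328 to 75757818, plus strand). It stood at 47.8 FPKM in shControl and 27.2 in the shJAM3 library (ratio 0.569, 0.543 to 0.595). In bulk RNA, fewer cells with a transcript and less of it per cell cannot be told apart, here and in the comparisons that follow. ITGB5 and ITGB1 changed places: ITGB5 was the highest beta chain in shControl and ITGB1 in shJAM3. ITGB2, the beta chain of leukocyte integrins, stood at 1.58 and 1.33 FPKM, and its interval included 1 (0.671 to 1.06).

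The summed level of all 8 beta chains was 204.1 FPKM in shControl and 195 in shJAM3, and its make-up differed more than its size. ITGB1 took 36.3% of the sum in shControl (35.6 to 36.9, delta-method interval from fragment numbers) and 55.4% in shJAM3 (54.7 to 56.1). ITGB5 took 39.3% and 29.8%, and ITGB4 took 23.4% and 13.9%. ITGB3, ITGB6, ITGB7 and ITGB8 were all under 0.4 FPKM in both libraries. ITGB8, a chain of the integrins that free latent TGF-beta, stood at 0.335 and 0.328 FPKM from 78 and 83 fragments. ITGB3 had 6 fragments and 1, ITGB7 had 2 and 4, and ITGB6 had 1 and none. For ITGB3 and ITGB7, 51.6% and 42.1% of the exon bases are shared with another annotated gene, so even these few fragments are uncertain.

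The sequence before the ITGB1 start is shown because ITGB1 was the only measured beta chain with a log2 ratio above 0 as deposited. It is the part of the 250 bases before the RefSeq start that lies in no GENCODE exon (GRCh38.p14, minus strand, chr10:32958233-32958480, 5' to 3'). Capitals mark every CpG.
ITGB1: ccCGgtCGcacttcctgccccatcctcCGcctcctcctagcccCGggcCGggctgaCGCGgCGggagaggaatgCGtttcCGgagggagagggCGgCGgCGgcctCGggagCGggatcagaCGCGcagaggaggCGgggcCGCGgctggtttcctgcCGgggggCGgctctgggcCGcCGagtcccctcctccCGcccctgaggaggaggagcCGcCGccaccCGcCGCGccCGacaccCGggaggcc
The 250 bases hold 32 CpG, a number reached by 9.52% of all 35116 RefSeq promoter windows of that length. They also hold the GC box GGGCGG on either strand, as do 42.6% of those windows. GENCODE has a further ITGB1 start 47562 bases upstream, and the deposited values do not tell starts apart. A divergent noncoding gene, ITGB1-DT, shares 42 exon bases with ITGB1. It stood at 4.20 FPKM in shControl and 1.96 in shJAM3, lower where ITGB1 was higher.

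Alpha chains were present for laminin, collagen, fibronectin and vitronectin, and they went both ways. ITGA5, the fibronectin receptor chain on chromosome 12 (54395261 to 54419460, minus strand), stood at 70.7 FPKM in shControl and 49.0 in the shJAM3 library (ratio 0.694, 0.671 to 0.717). ITGA3, a laminin receptor chain, stood at 40.5 and 32.0 FPKM (ratio 0.790, 0.761 to 0.820). ITGAV, the vitronectin receptor chain that pairs with 5 different beta chains, stood at 13.2 and 9.77 FPKM (ratio 0.739, 0.687 to 0.794). These 3 were lower in shJAM3 beyond counting error.

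ITGA6, the laminin receptor chain shared by ITGB1 and ITGB4, stood at 19.9 FPKM in shControl and 22.9 in the shJAM3 library (ratio 1.15, 1.08 to 1.22). ITGA2, a collagen receptor chain, stood at 11.6 and 13.6 FPKM (ratio 1.18, 1.10 to 1.26). Both were slightly higher in shJAM3. ITGA1, the other measured collagen receptor chain, lies 30115 bases from ITGA2 on chromosome 5 and read 2.79 and 2.15 FPKM (ratio 0.771, 0.694 to 0.855). The neighbours thus lay on opposite sides of 1. PELO, a gene on the same strand at 16.2 and 11.8 FPKM, shares 2.56% of the ITGA1 exon bases.

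ITGAE, which binds E-cadherin, stood at 3.10 FPKM in shControl and 2.92 in shJAM3, with an interval of the ratio that included 1 (0.804 to 1.10). HASPIN on the opposite strand covers 6.41% of its exon bases, and the library protocol describes no step that marks the strand. ITGA2B, the platelet fibrinogen receptor chain, stood at 1.56 and 2.01 FPKM from 133 and 186 fragments (ratio 1.29, 1.03 to 1.62). Its partner ITGB3 was near the counting limit, and the platelet genes GP9, PF4 and PPBP had no fragment in either library.

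Pairing the chains placed each alpha chain against its known beta partners. Of 24 known human heterodimers, 8 had both chains measured: 6 with ITGB1, and ITGA6 with ITGB4 and ITGAV with ITGB5. The alpha chain was the lower of the pair in all 8, in both libraries. In 5 of the 8 the chains lay on opposite sides of 0 and in 3 on the same side. These counts are not of separate observations, since 6 pairs share the ITGB1 values, and ITGA6 and ITGAV recur.

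For ITGA5 and ITGB1, the main fibronectin receptor, the beta chain stood at 1.05 times the alpha chain in shControl (1.01 to 1.08) and at 2.21 times in shJAM3 (2.14 to 2.28). For ITGA3 and ITGB1 that ratio was 1.83 (1.77 to 1.89) and 3.38 (3.27 to 3.50). Summed over the 12 alpha chains that can pair with ITGB1, alpha chains stood at 2.15 times ITGB1 in shControl (2.09 to 2.21) and 1.197 times in shJAM3 (1.17 to 1.23). The RNA of ITGB1 was thus closer to the sum of its partners in shJAM3 than in shControl. Some of these alpha chains also pair with other beta chains, and RNA levels do not give the number of receptors.

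ITGB4 has a single known partner, ITGA6. It stood at 2.40 times ITGA6 in shControl (2.28 to 2.53) and at 1.19 times in shJAM3 (1.13 to 1.25). ITGAV and ITGB5 were both lower in shJAM3, with ITGB5 at 6.07 times ITGAV in shControl (5.75 to 6.39) and 5.95 times in shJAM3 (5.61 to 6.31). These intervals overlap. The bar plot of pairs sets ITGB1 beside each of its partners.

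**Figure D2:**
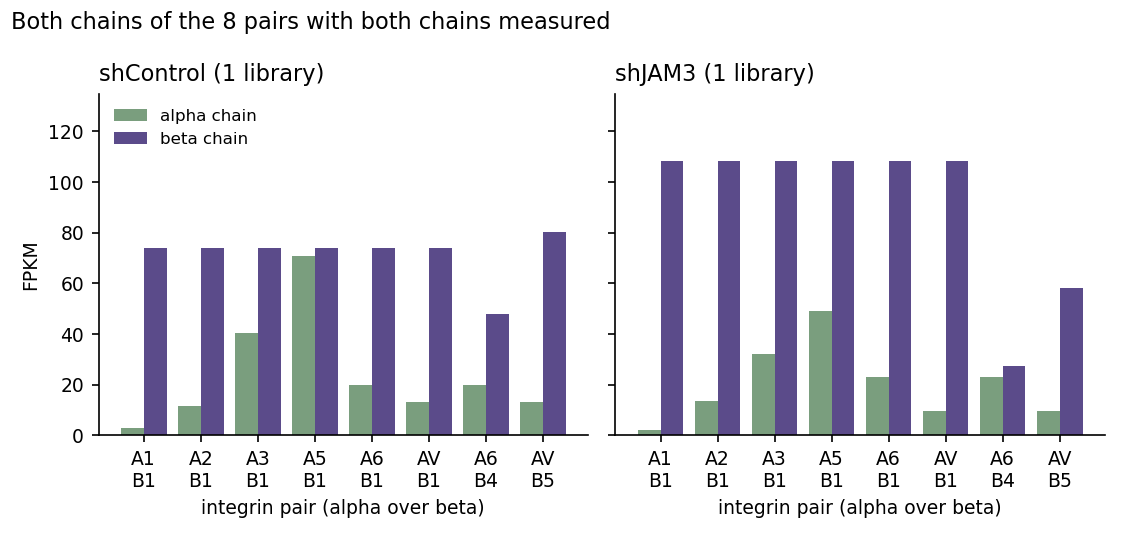
FPKM of the alpha and beta chain in each of the 8 integrin pairs with both chains measured, with 1 panel per library and bars from 0. ITGB1 is level with ITGA5 in shControl (74.0 and 70.7 FPKM) and above it in shJAM3 (108 and 49.0), and ITGB4 comes close to ITGA6 in shJAM3 (27.2 and 22.9).

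The other 16 pairs lacked a measured chain. The leukocyte integrins had ITGB2 but at most 0.666 FPKM of any of their alpha chains. ITGAL had no fragment in either library, which allows up to 0.0302 FPKM in shControl and 0.0278 in shJAM3 at 3 fragments. ITGAD stood at 0.398 and 0.666 FPKM and ITGAX at 0.230 and 0.186. ITGAM, whose pair with ITGB2 is a known counter-receptor of the JAM3 protein, had 15 fragments in shControl and 1 in the shJAM3 library (ratio 0.0614, 0.00146 to 0.399). PTPRC, which marks leukocytes, had no fragment in either library, and CD14, found on myeloid cells, had 66 and 24. The part of other cells in the ITGAM values was not tested.

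ITGA4 and ITGA11 had no fragment in either library, ITGA8 had 1 and none, and ITGA10 had 5 and 3. ITGA9 had 6 fragments in shControl and none in shJAM3, with an interval of the ratio from 0 to 0.782. ITGA7, the muscle laminin receptor chain, had 17 and 19. The receptors for VCAM1, for fibrillar collagen through ITGA11 and for tenascin through ITGA8 and ITGA9 were thus at or near the limit of detection.

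Laminin chains were led by LAMB3, and it had the log2 ratio furthest from 0 of the 20 measured genes, although NID2 was further after centring on GC content. LAMB3, on chromosome 1 (209614870 to 209652466, minus strand), encodes the beta 3 chain of an epithelial laminin. It stood at 148 FPKM in shControl and 67.0 in shJAM3, from 10644 and 5241 fragments (ratio 0.454, 0.439 to 0.469). In shControl 190 protein-coding genes were above it, and in shJAM3 567 were. Its log2 ratio of -1.13 was lower than that of all but 70 of 10499 measured protein-coding genes.

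LAMA3, the alpha 3 chain that is found with LAMB3 in epithelial laminin, was under 1 FPKM in both libraries. It stood at 0.612 and 0.421 FPKM (ratio 0.687, 0.527 to 0.894). LAMB3 RNA thus stood without measured RNA of its alpha partner in both libraries. A microRNA gene shares 6 bases with the LAMB3 exons, and no other annotated exon overlaps them.

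LAMA5, the alpha chain of laminin-511 and laminin-521, stood at 76.2 FPKM in shControl and 57.3 in the shJAM3 library (ratio 0.752, 0.735 to 0.769), but its log2 ratio of -0.41 became 0.10 after centring on GC content. It made up 96.6% and 93.3% of the summed alpha chain level. LAMA1, the alpha chain of the laminin of the early embryo, stood at 2.03 and 3.61 FPKM from 495 and 955 fragments (ratio 1.78, 1.59 to 1.98). It was the laminin chain with the largest positive log2 ratio among those measured, 0.60. Noncoding genes on the opposite strand cover 11.1% of its exon bases, with at most 2 fragments in either library. LAMA2 had no fragment in shControl and 10 in shJAM3, with an interval of the ratio from 2.06 upwards. LAMA4 had 4 and 7, with an interval that included 1 (0.410 to 7.51).

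LAMB1, the beta chain of most basement membrane laminins, stood at 36.6 FPKM in shControl and 29.9 in the shJAM3 library (ratio 0.817, 0.783 to 0.852). LAMB2, which replaces it in laminin-521, stood at 9.03 and 8.95 FPKM (ratio 0.992, 0.907 to 1.08). LAMC1, the gamma chain of nearly all laminins, stood at 31.9 and 34.1 FPKM (ratio 1.07, 1.03 to 1.11). LAMC3, the gamma 3 chain, stood at 38.6 and 31.9 FPKM (ratio 0.827, 0.792 to 0.863). These 2 gamma chains changed order, LAMC3 taking 54.7% of their sum in shControl (53.7 to 55.8) and 48.3% in shJAM3 (47.3 to 49.4). After centring on GC content both log2 ratios changed sign, LAMC3 from -0.27 to 0.11 and LAMC1 from 0.09 to -0.01, so the change of order holds for the levels as deposited.

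All 3 chains were measured for 5 of the 14 trimers: laminin-111, laminin-121, laminin-511, laminin-521 and laminin-523. For laminin-511 the lowest chain was LAMC1 at 31.9 FPKM in shControl and LAMB1 at 29.9 in shJAM3, nearly the same level. For laminin-521 and laminin-523 it was LAMB2 in both, and for laminin-111 and laminin-121 it was LAMA1. In the bar plot of laminin chains LAMB3 stands above LAMA5, LAMB1, LAMC1 and LAMC3 in both libraries.

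**Figure D3:**
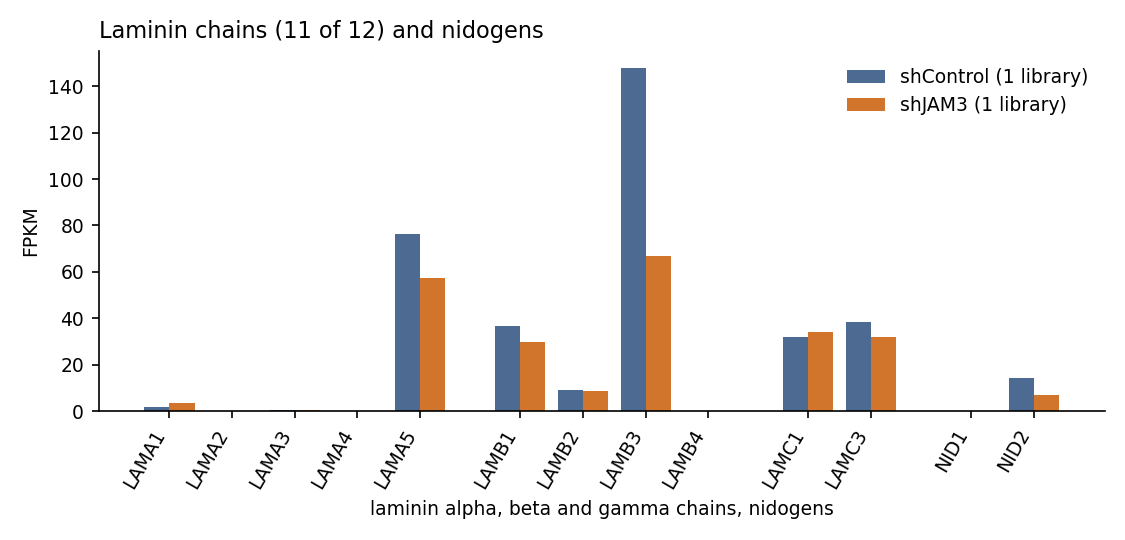
FPKM of 11 laminin chains and 2 nidogens in the shControl and shJAM3 libraries, with bars from 0. LAMB3 is the tallest bar in both libraries, and LAMA3, its alpha partner, stays below 0.7 FPKM.

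LAMB1 and LAMB4 are neighbours on chromosome 7, 20292 bases apart on the same strand, and only LAMB1 was detected. LAMB4 had no fragment in either library, which allows up to 0.0278 FPKM in shControl at 3 fragments. The sequences before the RefSeq starts of LAMB3, LAMB1 and LAMB4 are shown for this contrast, in the same way as for ITGB1: chr1:209652467-209652675, chr7:108003256-108003411 and chr7:108130362-108130611, all minus strand, 5' to 3', with CpG in capitals.
LAMB3: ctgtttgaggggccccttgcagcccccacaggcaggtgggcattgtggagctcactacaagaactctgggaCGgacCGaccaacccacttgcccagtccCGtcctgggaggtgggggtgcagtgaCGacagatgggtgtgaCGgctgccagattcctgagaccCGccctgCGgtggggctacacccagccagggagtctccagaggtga
LAMB1: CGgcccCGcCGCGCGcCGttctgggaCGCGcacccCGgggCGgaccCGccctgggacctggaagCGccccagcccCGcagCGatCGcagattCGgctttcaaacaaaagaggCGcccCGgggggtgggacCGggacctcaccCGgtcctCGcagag
LAMB4: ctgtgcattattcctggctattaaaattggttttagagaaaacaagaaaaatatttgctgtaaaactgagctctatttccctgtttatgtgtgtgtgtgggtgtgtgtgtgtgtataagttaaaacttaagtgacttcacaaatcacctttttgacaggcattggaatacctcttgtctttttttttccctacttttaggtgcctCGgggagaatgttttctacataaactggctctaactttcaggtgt
The full 250 bases hold 8 CpG at LAMB3, 28 at LAMB1 and 1 at LAMB4, against a median of 11 over all windows. LAMB3, the most abundant of the 40 genes in shControl, thus had fewer than the median.

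Of the nidogens NID2 was measured and NID1 was not. NID2, on chromosome 14 (52004803 to 52069228, minus strand), stood at 14.3 FPKM in shControl and 7.11 in shJAM3, from 1407 and 758 fragments. The ratio was 0.496 (0.454 to 0.542), and the log2 ratio of -0.92 stood below all but 202 of 10499 genes. RTRAF on the opposite strand shares 1915 of the 6392 NID2 exon bases. RTRAF stood at 7.20 and 7.96 FPKM, slightly higher in shJAM3, while NID2 was lower. NID1, the other nidogen, had 2 fragments in shControl and none in shJAM3.

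The sequences before the RefSeq starts of both nidogens are shown because only 1 of them was measured: chr14:52069229-52069309 for NID2 and chr1:236065163-236065340 for NID1, both minus strand, 5' to 3', with CpG in capitals.
NID2: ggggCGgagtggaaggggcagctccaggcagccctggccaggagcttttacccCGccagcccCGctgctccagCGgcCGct
NID1: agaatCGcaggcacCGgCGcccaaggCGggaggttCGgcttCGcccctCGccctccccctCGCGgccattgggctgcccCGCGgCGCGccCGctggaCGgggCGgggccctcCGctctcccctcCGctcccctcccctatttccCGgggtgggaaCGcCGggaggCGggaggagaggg
The 250-base windows hold 18 CpG at NID2 and 30 at NID1, numbers reached by 36.8% and 12.4% of all RefSeq windows. The gene with more CpG was thus the one near 0. Over the 28 members with a RefSeq window, the median was 16 CpG for the 15 measured (2 to 32) and 9 for the other 13 (0 to 30), and these ranges overlap almost fully. The GC box was in 10 of the 15 and in 5 of the 13, against 42.6% of all RefSeq windows.

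Over all 20 measured genes, 14 lay below 0 and 6 above, where 50.6% of all 10499 measured protein-coding genes lay below and 49.4% above. LAMB3 was the only one with a log2 ratio of -1 or below, a size reached by 1.41% of measured genes, and none reached 1, as 0.391% did. A log2 ratio of -0.5 or below was found for 4 (LAMB3, NID2, ITGB4 and ITGA5), against 12.4% of measured genes. ITGA5 was at -0.48, short of that size, when each library was scaled to its recovered total. A log2 ratio of 0.5 or above was found for 2 (LAMA1 and ITGB1), against 8.35%. Intervals of the ratio lay below 1 for 11 and above 1 for 6, against 36.8% and 34.5%. The median log2 ratio was -0.17 for alpha chains, -0.30 for beta chains and -0.27 for laminin chains, beside -0.01 for all measured genes.

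Log2 ratios went with transcript GC content, with a median of 0.24 in the tenth of measured genes with the lowest GC and -0.45 in the tenth with the highest. Across these genes r was -0.51 (10496 genes, which share both libraries). The measured laminin chains had a median GC of 59.4%, against 49.9% for all measured genes, and the alpha chains 46.8%. When each log2 ratio was centred on the median of its GC bin, the laminin median went from -0.27 to 0.10, the other side of 0. LAMA5 went from -0.41 to 0.10 and LAMC3 from -0.27 to 0.11, so their direction turned with the centring. LAMC1 (-0.01), LAMB2 (0.21) and ITGB2 (0.08) also changed sign. Of the 20 genes 11 then lay below 0 and 9 above, in place of 14 and 6. A log2 ratio of -0.5 or below was then found for 4, as before, but for LAMB3, NID2, ITGAV and ITGA1, against 7.89% of measured genes, and 0.5 or above for LAMA1 alone, against 5.78%. LAMB3 (-0.90 after centring) and NID2 (-0.93) stayed the furthest below 0 of the 20 genes, both just short of -1. ITGB4 went from -0.79 to -0.42.

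In the low-GC genes centring worked the other way. ITGAV went from -0.40 to -0.63 and ITGA1 from -0.27 to -0.53. ITGA6 (0.00) and ITGA2 (0.02) were left with almost no difference. ITGB1 went from 0.54 to 0.36 and LAMA1 from 0.60 to 0.53, both still above 0. The contrast of ITGB1 with ITGA5 (-0.43) and of ITGB4 (-0.42) with ITGA6 thus remained in direction. Whether GC content, RNA quality or library preparation had a part in any of these differences was not tested.

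**Figure D4:**
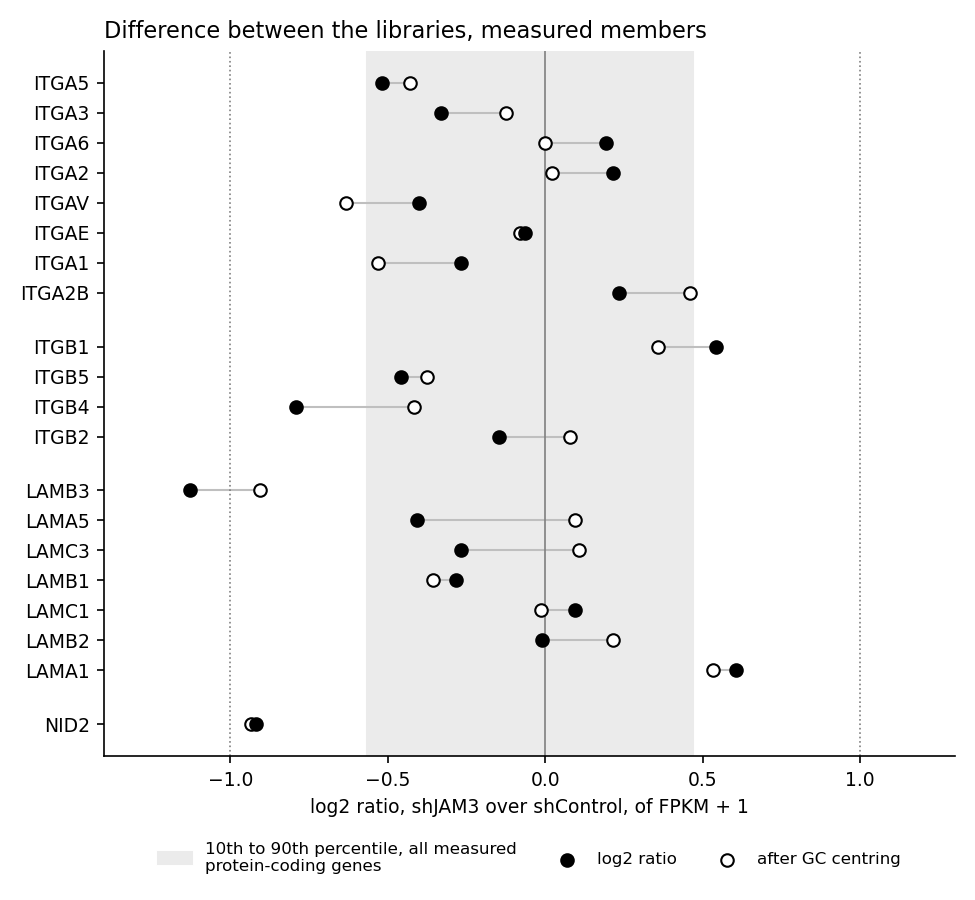
Log2 ratio of shJAM3 over shControl for the 20 measured genes (filled) and after GC centring (open), with the 10th to 90th percentile of 10499 measured protein-coding genes shaded and dotted lines at -1 and 1. LAMB3 and NID2 lie left of the shaded band in both forms, and LAMA5 and LAMC3 cross 0. The band is of log2 ratios before GC centring, so it is a reference for the filled points only.

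**Figure D5:**
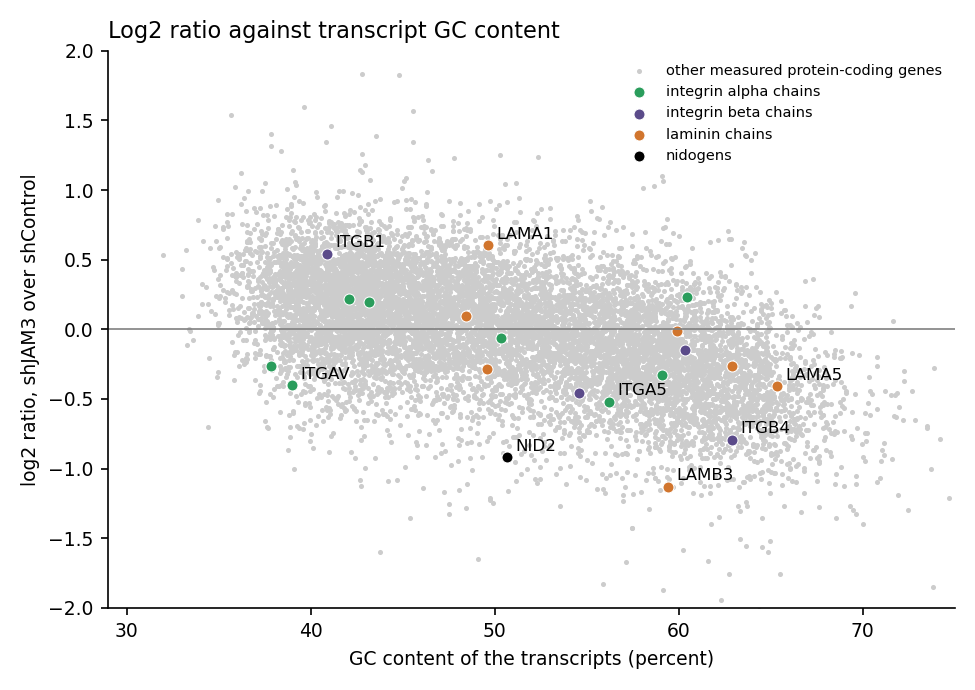
Log2 ratio against the GC content of the transcripts (percent) for measured protein-coding genes, with the integrin, laminin and nidogen genes coloured (10 genes of 10499 fall outside the axes or have no GC value). ITGB1 lies at 40.9% GC and ITGB4 at 62.9%, towards opposite ends of the trend, and NID2 at 50.6% lies far below it.

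The partners of these proteins were described from 3 further lists, chosen with earlier results of these data known. Among ligands and basement membrane partners, 29 of 31 listed symbols were in the table, and 20 were measured. The other symbols are newer names of CYR61 and CTGF, which were in the table. Of these 20 genes 17 lay below 0, against 50.6% of all measured genes, with a median log2 ratio of -0.35 (-0.30 after GC centring). AGRN, HSPG2, FBLN2 and COL1A1 were below 0 as deposited and above 0 after GC centring (0.13, 0.01, 0.02 and 0.08). NTN4, a laminin-binding netrin, stood at 15.8 FPKM in shControl and 5.68 in the shJAM3 library (ratio 0.361, 0.320 to 0.406), and was the only one past -1. VTN, vitronectin, stood at 1.80 and 0.692 FPKM (0.385, 0.238 to 0.607). ICAM1, the ligand of leukocyte integrins, stood at 17.0 and 11.4 FPKM (0.670, 0.608 to 0.739), and FBLN1, a fibulin that binds laminin and nidogen, at 111.0 and 76.6 FPKM (0.690, 0.672 to 0.709). The log2 ratio was -1.33 for NTN4, -0.73 for VTN, -0.54 for ICAM1 and -0.53 for FBLN1. GC centring gave -1.43, -0.57, -0.38 and -0.30. Intervals of the ratio as deposited lay below 1 for 17 of the 20 and above 1 for none, against 36.8% and 34.5% of all measured genes.

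Among 29 activators and inactivators that bind integrin tails or their adaptors, 25 were measured, 18 of them below 0 (50.6% of all measured genes), with a median of -0.31 (-0.18 after GC centring). Intervals lay below 1 for 13 and above 1 for 4, beside the same 36.8% and 34.5%. BCAR1, a scaffold of focal adhesions, stood at 17.2 FPKM in shControl and 8.85 in the shJAM3 library (ratio 0.516, 0.482 to 0.552). TNS3, a tensin that binds beta tails, stood at 17.4 and 10.4 FPKM (0.598, 0.565 to 0.632), and VCL, vinculin, at 51.6 and 33.0 FPKM (0.639, 0.617 to 0.661). RSU1, which binds the PINCH adaptor, was higher, at 6.62 and 10.9 FPKM (1.65, 1.47 to 1.87). The log2 ratio was -0.88 for BCAR1, -0.69 for TNS3, -0.63 for VCL and 0.65 for RSU1. GC centring gave -0.38, -0.61, -0.74 and 0.49, so that BCAR1 differed less than VCL and TNS3.

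Among 21 other laminin receptors and membrane partners of integrins, 20 were measured, 11 below 0 and 9 above (50.6% and 49.4% of all measured genes), with a median of -0.05, or 0.03 after GC centring. Intervals lay below 1 for 10 and above 1 for 7, against 36.8% and 34.5% of all measured genes. The tetraspanin CD82 stood at 11.9 FPKM in shControl and 6.02 in the shJAM3 library (ratio 0.504, 0.445 to 0.569). CD151, the tetraspanin that binds laminin-binding integrins, stood at 72.1 and 47.6 FPKM (0.661, 0.631 to 0.692). CAV1, caveolin, stood at 5.31 and 9.47 FPKM (1.78, 1.56 to 2.04), and RPSA, a ribosomal protein also called the laminin receptor, at 277 and 396 FPKM (1.43, 1.40 to 1.45). The log2 ratio was -0.88 for CD82, -0.59 for CD151, 0.73 for CAV1 and 0.51 for RPSA. GC centring gave -0.66, -0.28, 0.58 and 0.41. RPSA has processed copies in the genome, which makes its value uncertain.

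The markers of the cell line were partly those of an epithelial carcinoma. KRT8, KRT18, KRT7 and MSLN had between 93.4 and 198 FPKM, whereas EPCAM (0.904 and 0.690), CDH1 (0.169 and 0.243) and PAX8 (1.12 and 0.527) were low, and WT1 had 1 fragment and none. KRT19 had 1 fragment and 3, and MUC16 stood at 0.475 and 1.07 FPKM. Over these 10 markers the sum was 624 FPKM in shControl and 541 in shJAM3. MSLN (198 and 127) and KRT7 (140.3 and 93.4) were lower in shJAM3, whereas KRT18 (145 and 165), KRT8 (139 and 153) and MUC16 were higher. The 5 leukocyte markers summed to 2.66 and 1.36 FPKM, nearly all from CD14 (2.28 and 0.763), with PTPRC and LYZ at 0. The 3 endothelial markers summed to 0.482 and 0.405 FPKM. Of 5 fibroblast markers COL1A1 (13.5 and 11.3) and PDGFRB (3.79 and 2.99) were measured, while DCN and LUM had at most 3 fragments and PDGFRA none.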

How the data were processed

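RNA of 2 libraries, 1 per group, was analysed. The authors deposited 1 table of FPKM with symbols, coordinates and exon lengths. Among the tools in the submitters' processing notes are HISAT2 2.0.5 and featureCounts 1.5.0-p3, listed with no role or order. No genome build is named in the sources used here. All 58735 coordinates and lengths matched GENCODE 29 (GRCh38). Deposited FPKM times length gave whole multiples of 1 step in both libraries for 100% of values above 0 (tolerance 0.001 fragments), from which fragment numbers were taken. The library sizes in the FPKM were 0.987 and 1.01 times the recovered totals, a scaling whose method is not given.

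Protein-coding rows were reduced to 1 per symbol, the one with the highest mean. Measured genes had a mean of at least 1 FPKM. Size rules were log2 ratios of 1 and 0.5 with a pseudocount of 1 FPKM. Ratio intervals were exact conditional binomial intervals. Transcript GC came from GENCODE 29 sequences, averaged by length, and centring used 20 bins. Promoter windows came from RefSeq (GRCh38.p14), at the start nearest the 5' end of the deposited gene, for 28 of 40 members. Genes of the further lists were named where their absolute log2 ratio was among the 4 largest. The values of 1 of the 40 members are not reported here, and it is counted in the class totals. Members and lists were chosen with earlier results of these data known. Scripts were tested on simulated data and run in Python 3.11.15 with numpy 2.4.6, pandas 2.3.3 and scipy 1.17.1. The alternatives were another pseudocount, other scalings, other filters and GC centring.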

Additional observations from a re-analysis of the deposited data

How the results depend on the processing

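With 1 library per group no replicate could be left out. No paired analysis was possible because each group has a single library. With a pseudocount of 0.1 FPKM, 2 measured genes had a log2 ratio of -1 or below in place of 1, NID2 being the second, against 2.74% of all measured genes in place of 1.41%. LAMA1 went from 0.60 to 0.80 with that pseudocount, the only 1 of the 20 to move beyond counting error. With no filter on low values the medians were -0.022 for alpha chains, -0.062 for beta chains, -0.0054 for laminin chains, -0.48 for nidogens and -0.17 for activators and inactivators. With a mean of at least 5 FPKM the medians were -0.33 for alpha and -0.46 for beta chains. There 1 gene was at 0.5 or above in place of 2, because LAMA1, with a mean of 2.82 FPKM, was left out. The share of all genes at 0.5 or above was not computed for that filter. GC centring gave medians of -0.15 for beta chains, 0.10 for laminin chains and 0.029 for the other laminin receptors and membrane partners, the last 2 of opposite sign. It left 0 genes at -1 or below and 1 at 0.5 or above, against 0.676% and 5.78% of all measured genes. LAMA5 (0.10), LAMC3 (0.11), LAMC1 (-0.012), LAMB2 (0.21) and ITGB2 (0.079) changed sign with GC centring, 11 other genes moved beyond counting error and 4 did not. With each library scaled to its recovered total LAMB2 changed sign (0.024) and LAMA5 moved beyond counting error (-0.37). With that scaling 3 genes were at -0.5 or below in place of 4, without ITGA5 (-0.48). The share of all measured genes at that size was 11.2% in place of 12.4%. Scaling to a median of 0 moved none of the 20 beyond counting error. LAMB2, ITGAE and ITGB2 had intervals that included 1, so their direction was not resolved beyond counting error.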
